A study of Mesocricetus auratus with 6 samples.

Results

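The genes described here are 10 markers of tissue macrophages, *C1qa*, *C1qb*, *C1qc*, *Aif1*, *Csf1r*, *Cx3cr1*, *Siglec1*, *Clec4f*, *Cd68* and *Marco*. They were taken by gene name, and all 10 were found among the 31593 genes measured by RNA-seq in Syrian hamsters. Cortex, liver and the suprachiasmatic nucleus (SCN), the central clock of the brain, were collected at CT15 (circadian hour 15, in the subjective night). *duper* hamsters are homozygous for a spontaneous frameshift deletion in *Cry1*, a repressor of the circadian clock, descend from a line crossed to the LVG stock, and had been typed as free of the *tau* mutation on which *duper* arose. Wild-type hamsters were of the outbred LVG stock. Each genotype had 4 hamsters, all female for *duper* and males and females in equal number for wild type, and their age was not given in the sources used here. For cortex and SCN the 4 hamsters of a genotype were mixed into 1 library, and for liver the reads of 4 individual libraries were merged. The data are therefore 6 libraries, 1 per genotype and tissue, with no replicate within a tissue.

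Macrophages live in nearly every organ and take on the features of the organ they settle in. In brain they are the microglia, which depend on the growth factor receptor CSF1R and sense the neuronal chemokine fractalkine through CX3CR1. In liver they are the Kupffer cells, which sit in the sinusoids and clear particles from the blood with lectins and scavenger receptors such as CLEC4F and MARCO. Both kinds of cell make C1q, the protein that starts the classical complement pathway and that is assembled from the products of *C1qa*, *C1qb* and *C1qc*.

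The libraries held 6788947 to 85748562 estimated counts, of which the 10 markers took 1305 to 78319. Neuron markers summed to between 2620 and 6025 TPM (a level scaled for transcript length and library total) in the brain libraries and at most 1.47 TPM in liver. Hepatocyte markers other than *Ttr*, which the choroid plexus also makes, summed to at least 126118 TPM in liver and at most 136 TPM in brain. Within brain, 4 genes of cortical excitatory neurons summed to 899 and 993 TPM in cortex and to 14.8 and 19.7 TPM in SCN. A set of 4 genes typical of the SCN summed to 13.6 and 17.0 TPM in cortex and 35.5 and 49.8 TPM in SCN. That set reached 125 and 135 TPM in liver, so it serves only to compare the brain tissues. *Cry1* lay between 5.44 and 8.56 TPM in *duper* and between 16.8 and 33.3 TPM in wild type, with no overlap. In liver 10 genes took 22.8% and 24.9% of all counts, against 2.91% to 3.71% in brain, and TMM factors, which rescale each library so that most genes stay level, ran from 0.539 to 1.41. In such bulk tissue, more cells of a type and more RNA per cell cannot be told apart.

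The 3 C1q chains were the most abundant of the markers in brain and rose further in liver. *C1qa* was measured at 67.0 and 63.4 TPM in the cortex of wild-type and *duper* hamsters, at 76.3 and 88.3 TPM in the SCN pair, and at 155 and 279 TPM in liver. *C1qb* gave 56.3 and 68.2 TPM in cortex, 73.7 and 98.7 TPM in the SCN pair, and 124 and 209 TPM in liver, in the same order of genotypes. *C1qc* gave 74.7 and 73.8 TPM in cortex, 93.8 and 117 TPM in the SCN pair, and 161 and 249 TPM in liver. For each chain both liver libraries lay above all 4 brain libraries, and within liver and SCN the *duper* library was the higher one. The chains kept close proportions: in every library the most abundant chain was 1.16 to 1.34 times the least abundant, and of their sum *C1qa* made up 29.0% to 37.9%, *C1qb* 28.2% to 33.2% and *C1qc* 33.8% to 38.5%. In the annotation the genes are direct neighbours in the order *C1qa*, *C1qc*, *C1qb*, between *Epha8* and *Ephb2*.

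*Csf1r*, the receptor for the growth factors CSF1 and IL-34, was the most even of the markers across tissues. Its level was 46.4 and 54.4 TPM in wild-type and *duper* cortex, 51.7 and 53.1 TPM in the SCN pair, and 36.3 and 59.6 TPM in liver. Wild-type liver was thus the lowest and *duper* liver the highest library, and the tissues overlapped. *Cx3cr1*, the fractalkine receptor, stood at 14.3 and 22.8 TPM in cortex, 14.2 and 25.2 TPM in the SCN pair, and 0.994 and 0.983 TPM in liver. The mean brain level of *Cx3cr1* was 19.3 times the liver mean, and in both brain tissues the *duper* library was the higher one. It has 2 annotated transcripts, and the share given to the second moved from close to 0% to 100% between libraries, so only the sum over both was used.

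*Aif1* encodes IBA1, an actin-binding protein widely used to stain microglia, and *Cd68* encodes a glycoprotein of macrophage lysosomes. *Aif1* was at 22.4 and 30.4 TPM in wild-type and *duper* cortex, 23.7 and 35.7 TPM in the SCN pair, and 37.9 and 43.3 TPM in liver. Its *duper* library was the higher one in each tissue, and the *duper* SCN came close to the wild-type liver. *Cd68* was at 6.84 and 7.82 TPM in cortex, 7.66 and 6.51 TPM in the SCN pair, and 22.4 and 29.3 TPM in liver. The 4 brain libraries of *Cd68* lay close together, on 23 to 129 counts each, and both liver libraries were clearly above them.

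The other 3 markers are surface receptors that Kupffer cells carry. *Siglec1*, a sialic acid receptor that also belongs to the genes induced by type I interferon, gave 1.17 and 3.32 TPM in wild-type and *duper* cortex, 1.92 and 3.97 TPM in the SCN pair, and 6.03 and 9.82 TPM in liver. Its *duper* library was the higher one in all 3 tissues, and both liver libraries lay above every brain library. *Clec4f*, a galactose-binding lectin of rodent Kupffer cells, was at 50.4 TPM (3609 counts) in wild-type and 95.7 TPM (8518 counts) in *duper* liver. In brain it had 1 count in all, in the wild-type SCN, and 0 counts in the other 3 libraries, which allow 0.375 to 0.568 TPM at the 3 counts that a count of 0 does not exclude. *Marco*, a scavenger receptor that binds bacteria, was at 132 TPM (7960 counts) and 219 TPM (16437 counts) in liver, against 0 to 2 counts in each brain library.

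**Figure D1:**
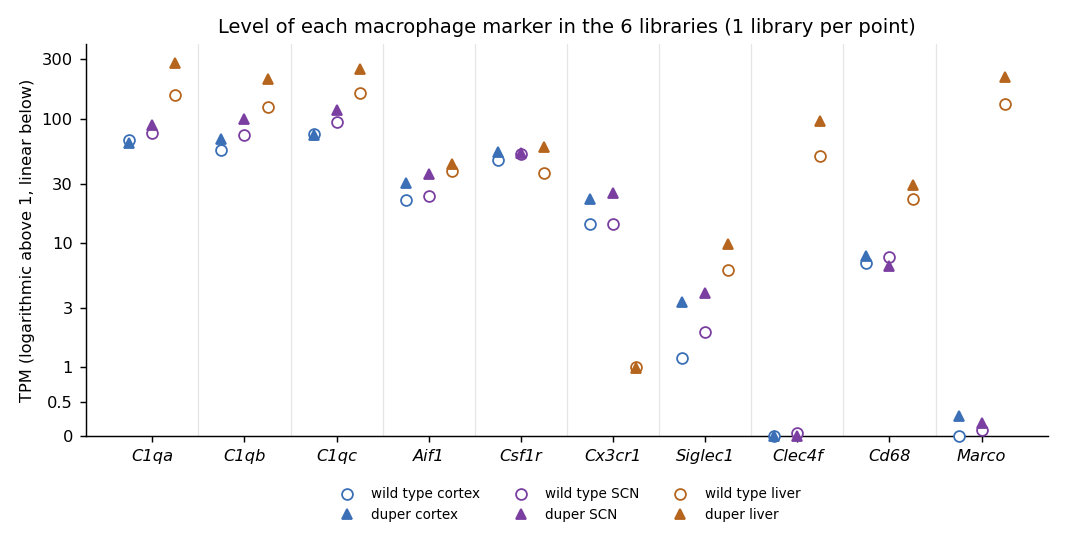
TPM of each of the 10 markers (vertical axis, logarithmic above 1 and linear below) in the 6 libraries, with open circles for wild type, filled triangles for *duper*, and 1 colour per tissue. *Clec4f* and *Marco* sit at or near 0 in the 4 brain libraries and between 50.4 and 219 TPM in liver, *Cx3cr1* falls to about 1 TPM in liver, and *Csf1r* stays between 36.3 and 59.6 TPM throughout.

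The order of the levels followed the tissue. In all 4 brain libraries *C1qc* came first, then *C1qa* and *C1qb* in either order, then *Csf1r*, *Aif1*, *Cx3cr1*, *Cd68* and *Siglec1*. *C1qa* and *C1qb* exchanged places between the genotypes in both brain tissues, so these neighbours were not separated. In both livers *Marco* stood just behind *C1qa* and *C1qc*, *Clec4f* just behind *C1qb*, and *Cx3cr1* last, and the places that differed between the genotypes were those of *C1qa* against *C1qc* and of *Aif1* against *Csf1r*.

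Levels relative to *Csf1r* in the same library do not depend on how libraries are scaled to each other. The mean C1q chain was 1.26 to 1.91 times *Csf1r* in brain and 4.04 and 4.12 times in the wild-type and *duper* liver. *Cd68* was 0.123 to 0.148 of *Csf1r* in brain against 0.618 and 0.492 in liver, and *Siglec1* was 0.0253 to 0.0747 against 0.166 and 0.165. *Cx3cr1* went the other way, from 0.275 to 0.474 in brain to 0.0274 and 0.0165 in liver. For each of these ratios the liver libraries lay outside the range of the 4 brain libraries. In liver *Marco* was 3.63 and 3.67 times *Csf1r*, and *Clec4f* 1.39 and 1.61 times. Between the livers the ratio thus differed little for C1q, *Siglec1* and *Marco*. It differed more for *Cd68*, *Cx3cr1*, *Clec4f* and *Aif1*, the last at 1.04 in wild type and 0.727 in *duper*. In brain the *Siglec1* ratio was higher in *duper*, at 0.0253 and 0.0610 in wild-type and *duper* cortex and 0.0373 and 0.0747 in the SCN pair. So was that of *Cx3cr1*, at 0.309 and 0.419 in cortex and 0.275 and 0.474 in the SCN pair. The *Aif1* ratio was higher as well, at 0.482 and 0.559 in cortex and 0.459 and 0.672 in the SCN pair. The *Cd68* ratio was lower in *duper* in both brain tissues, and the C1q ratio was lower in cortex and higher in SCN.

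**Figure D2:**
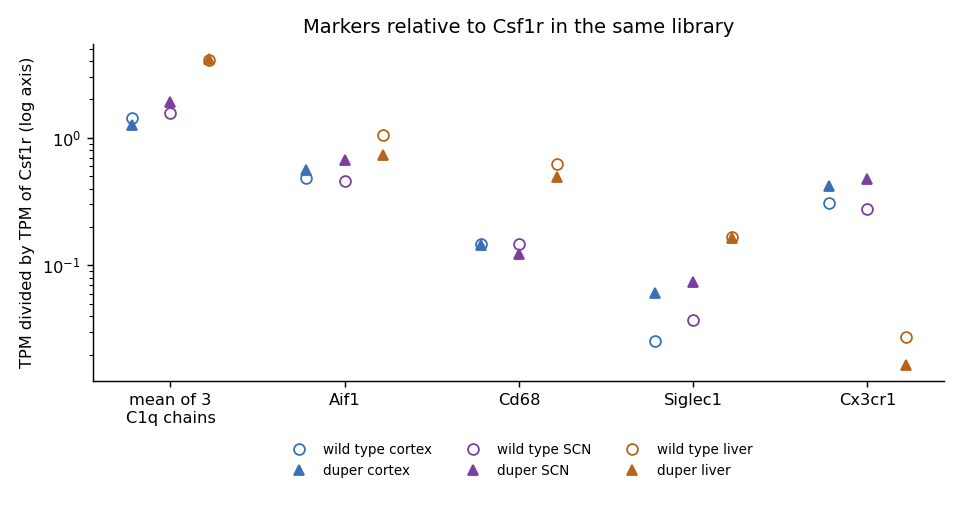
TPM of the mean C1q chain, *Aif1*, *Cd68*, *Siglec1* and *Cx3cr1* divided by the TPM of *Csf1r* in the same library (log axis), with open circles for wild type, filled triangles for *duper*, and 1 colour per tissue. The liver libraries lie above the brain libraries for the C1q chains (4.04 and 4.12), *Cd68* and *Siglec1* and below them for *Cx3cr1* (0.0274 and 0.0165).

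To compare liver with brain, rounded counts were tested with edgeR's quasi-likelihood test in a model of tissue and genotype, in which the genotypes stand in for replicates of a tissue. Calls needed an absolute log2 fold change over 0.58 together with an adjusted p (Benjamini-Hochberg) under 0.05. All 8 markers that passed the filter on low counts were called, 7 higher in liver and *Cx3cr1* lower. Among all 18275 genes tested 33.3% were called higher and 34.1% lower, so a call by itself says little about a marker. Of the 8, *Cd68* rose most, by 3.38 ± 0.22 (SE) on the log2 scale (adjusted p = 1.02e-05), followed by *Siglec1* at 3.27 ± 0.16 and *C1qa* at 3.11 ± 0.22. *C1qc* (2.77 ± 0.17), *C1qb* (2.73 ± 0.15), *Aif1* (2.13 ± 0.18) and *Csf1r* (1.45 ± 0.18) followed. *Cx3cr1* fell by 2.66 on the log2 scale (SE 0.24, adjusted p = 6.14e-05).

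The calls of *Csf1r* and *Aif1* depended on the scaling. Scaling by library size alone, without TMM, moved the median of all genes to -1.21, and each marker moved by about as much. *Csf1r* was then at 0.23 and no longer called (adjusted p = 0.237), and limma on log2(TPM + 1) put it at -0.14 (adjusted p = 0.521). *Aif1* stayed above 0 but lost its call under limma on log2(TPM + 1), at 0.54 (adjusted p = 0.0228). The other 6 kept their direction and their call under every alternative listed under the processing, *Cx3cr1* between -3.87 and -2.66 under these 3 scalings.

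**Figure D3:**
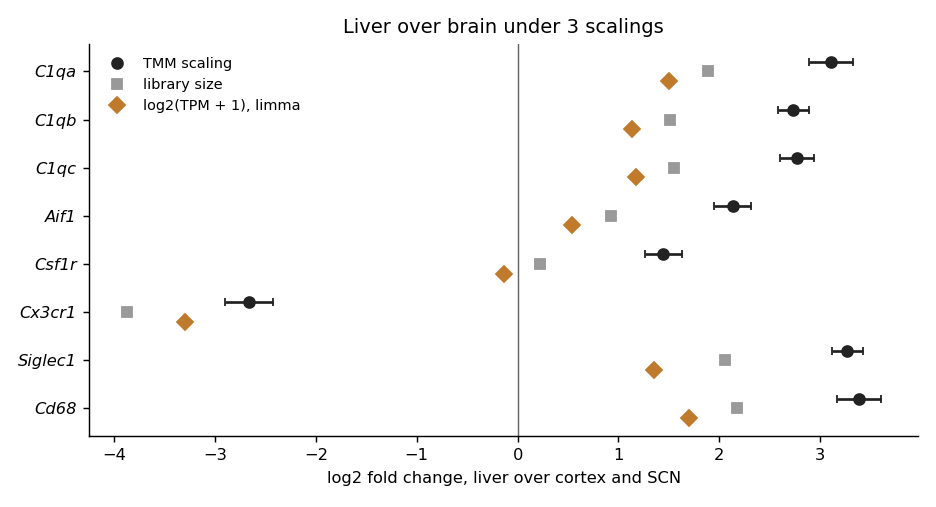
Log2 fold change of liver over cortex and SCN (horizontal axis) for the 8 markers that passed the filter, under TMM scaling (circles, bars are ± 1 SE), under library size alone (squares) and with limma on log2(TPM + 1) (diamonds). *Csf1r* moves from 1.45 to 0.23 and -0.14, while the other markers stay on their side of 0.

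*Clec4f* and *Marco* had too few libraries with counts for that filter, which asks for 3 libraries. With the filter set by tissue, which asks for 2, both were called higher in liver, at adjusted p = 2e-07 and 1.06e-07, where 33.6% of 19780 genes were called higher. They passed only through the tissue in which they are high, so the call adds nothing to their counts. Taking 3 counts as the floor of a library, *Clec4f* was at least 88.8-fold higher in wild-type liver than in wild-type cortex and at least 255-fold and 199-fold higher in *duper* liver than in *duper* cortex and SCN. *Marco* was at least 196-fold higher in wild-type liver than in wild-type cortex and 739-fold higher in *duper* liver than in *duper* cortex (95% counting interval 204 to 6099).

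The longer lists of macrophage genes differed in how they compared between liver and brain. Of all 18275 genes, 33.3% were called higher and 34.1% lower in liver. Under library size alone 2633 of the 18275 were called higher and 11001 lower. Of 13 other microglial genes tested, 6 were called higher and 4 lower in liver, with a median of 0.22 on the log2 scale against -0.00 for all genes. Under library size alone this turned to 4 higher and 6 lower with a median of -0.99, against -1.21 for all genes. *P2ry12*, the ADP receptor of resting microglia, went from 22, 31.8, 23.5 and 30.3 TPM in the brain libraries to 0.311 and 0.317 TPM in liver. All 9 further Kupffer cell genes tested were called higher in liver, with a median of 5.05 (8 of 9 under library size alone). Among them *Slc40a1*, the iron exporter ferroportin, went from 10.5 to 15.3 TPM in brain to 222 and 249 TPM in liver. *Cd5l*, a secreted macrophage protein that did not pass the filter, had 0.0369 to 0.488 TPM in brain and 90.7 and 143 TPM in liver. The 14 genes shared by most macrophages were all called higher in liver as well, with a median of 2.81 (12 of 14 under library size alone), such as *Fcer1g*, an Fc receptor subunit, at 46.2 to 64.6 TPM in brain and 112 and 172 TPM in liver. Of 5 genes of macrophages at the borders of the brain, 3 were called higher (*Mrc1*, *Lyve1* and *Stab1*) and 2 lower.

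The ligands of the receptors were distributed in their own way. *Cx3cl1*, which encodes fractalkine, was at 342 and 298 TPM in wild-type and *duper* cortex, 110 and 115 TPM in the SCN pair, and 0.387 and 0.233 TPM in liver. *Il34* was at 110 and 76.8 TPM in cortex, 66.9 and 57.2 TPM in the SCN pair, and 6.25 and 5.25 TPM in liver. *Csf1*, the other ligand of CSF1R, was at 13.1 and 16.7 TPM in cortex, 24.2 and 25.5 TPM in the SCN pair, and 11.2 and 11.9 TPM in liver. *Cx3cl1* and *Il34* thus were lower in both livers than in every brain library, like *Cx3cr1*, while *Csf1* in liver lay just under its range in brain. On the TMM scale *Csf1* was nevertheless called higher in liver, by 0.79 ± 0.12 (adjusted p = 0.000916), a direction opposite to that of its TPM. Of the 16 ligands, C1q partners and TGF-beta genes tested, 13 were called higher and 2 lower in liver (10 and 3 under library size alone). Of all genes 33.3% were called higher and 34.1% lower. *C3*, the central complement protein, was at 16.1 to 27.9 TPM in brain and 4034 and 6426 TPM in liver, and *C1r*, a protease that binds C1q, at 2.76 to 8.77 TPM in brain and 464 and 657 TPM in liver.

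Between SCN and cortex no marker was called, while 11.2% of all genes were. The estimates for SCN over cortex were positive for all 8 markers, from 0.02 ± 0.30 for *Cd68* to 0.50 ± 0.21 for *C1qc* (adjusted p = 0.194). *C1qb* had the smallest unadjusted p, 0.0469 at 0.47 ± 0.19 (adjusted p = 0.179), and was the only marker under 0.05 before adjustment. The SEs of these 8 estimates ran from 0.19 to 0.30. The shared sign rested in part on single libraries: *Csf1r* was at -0.21 and *Cd68* at -0.37 without the wild-type SCN, *Cx3cr1* at -0.14 without the *duper* SCN, and *C1qa* at -0.00, *Csf1r* at -0.05 and *Cd68* at -0.01 without the *duper* cortex. *C1qb*, *C1qc*, *Aif1* and *Siglec1* stayed above 0 without any one library.

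For *duper* over wild type, each tissue served as a replicate, although all came from one set of hamsters per genotype. None of the 8 markers tested was called by edgeR's quasi-likelihood test, where 0.00547% of 18275 genes (1 gene) were called. At an unadjusted p under 0.05 there were 4 of the 8 markers, against 3.31% of all genes. All 8 estimates were positive, with a median of 0.44 on the log2 scale against 0.01 for all genes. For some markers this rested on liver: without it *C1qa* was at 0.06, *Csf1r* at 0.11, *C1qc* at 0.15 and *Cd68* at -0.05, whereas *C1qb* was at 0.34, *Aif1* at 0.51 and *Cx3cr1* at 0.73.

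*Siglec1* had the largest estimate and the smallest p of these 8 markers. Its log2 fold change was 1.07 ± 0.16 (unadjusted p = 0.000362, adjusted p = 0.390). It was called in 3 of 11 alternatives, by DESeq2 (adjusted p = 0.00421), by edgeR's likelihood ratio test (adjusted p = 4.84e-05) and with no filter on low counts (adjusted p = 0.0438). *Siglec1* is among the genes that the study itself picked from these libraries, so this is not independent evidence of its direction. The size of the difference went from 0.90 without cortex to 1.21 without liver, with an adjusted p of 0.220 or more without any one tissue.

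The other 7 of these markers had smaller estimates. *C1qb* was at 0.56 ± 0.15 (unadjusted p = 0.00958), *Cx3cr1* at 0.54 ± 0.20 (0.0333), *Aif1* at 0.46 ± 0.19 (0.0472), *C1qa* at 0.42 ± 0.22 (0.0973), *C1qc* at 0.39 ± 0.17 (0.0584), *Csf1r* at 0.38 ± 0.18 (0.0749) and *Cd68* at 0.23 ± 0.23 (0.343), all with an adjusted p of 0.998 by edgeR. None of these 7 was called in any alternative. For *Clec4f* and *Marco* the fit with the filter by tissue gave 1.08 ± 0.23 (adjusted p = 0.592) and 0.94 ± 0.20 (adjusted p = 0.550), values set by the liver libraries alone, where 0.0758% of 19780 genes were called.

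Within a tissue there was 1 library per genotype and no test, so ratios of TPM are given with a 95% Clopper-Pearson interval that covers counting error only. In cortex, *duper* over wild type ran from -0.08 for *C1qa* to 1.50 for *Siglec1* (interval 0.83 to 2.22) on the log2 scale. Of 8 markers whose mean reached 1 TPM, 2 were past 0.58 and higher, *Siglec1* and *Cx3cr1* (0.67, interval 0.34 to 1.01), where 11.0% of all such genes were. The C1q chains and *Csf1r* were between -0.08 and 0.28, and the intervals of *C1qa* and *C1qc* held 0. In SCN, 3 of 8 were past 0.58, against 9.08% of all genes: *Siglec1* (1.04, interval 0.68 to 1.40), *Cx3cr1* (0.83, interval 0.60 to 1.06) and *Aif1* (0.59, interval 0.14 to 1.02). *Csf1r* was level there, at 0.04 with an interval of -0.08 to 0.16.

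Liver had the most uniform pattern. Of 9 markers, 7 were past 0.58 and higher in *duper*, where 6.48% of all genes were, and the median over the markers was 0.72 against -0.12 for all genes. *Clec4f* was highest at 0.92 (interval 0.87 to 0.98), then *C1qa* at 0.85 (0.80 to 0.89), *C1qb* at 0.75 (0.70 to 0.80), *Marco* at 0.73 (0.69 to 0.77), *Csf1r* at 0.72 (0.67 to 0.76), *Siglec1* at 0.70 (0.62 to 0.79) and *C1qc* at 0.63 (0.59 to 0.68). *Cd68* at 0.39 (0.27 to 0.50) and *Aif1* at 0.19 (0.06 to 0.33) were below 0.58. *Cx3cr1*, under 1 TPM in both livers, was at -0.02 with an interval of -0.41 to 0.38. These 10 genes are read from the same pair of liver sets, so their agreement in direction counts as 1 observation of that pair. Scaled by TMM, the liver ratios were higher still, 1.03 for *C1qa* and 1.11 for *Clec4f*. This rescaling shifts all genes of the pair nearly alike, so it does not set the markers further apart from other genes.

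**Figure D4:**
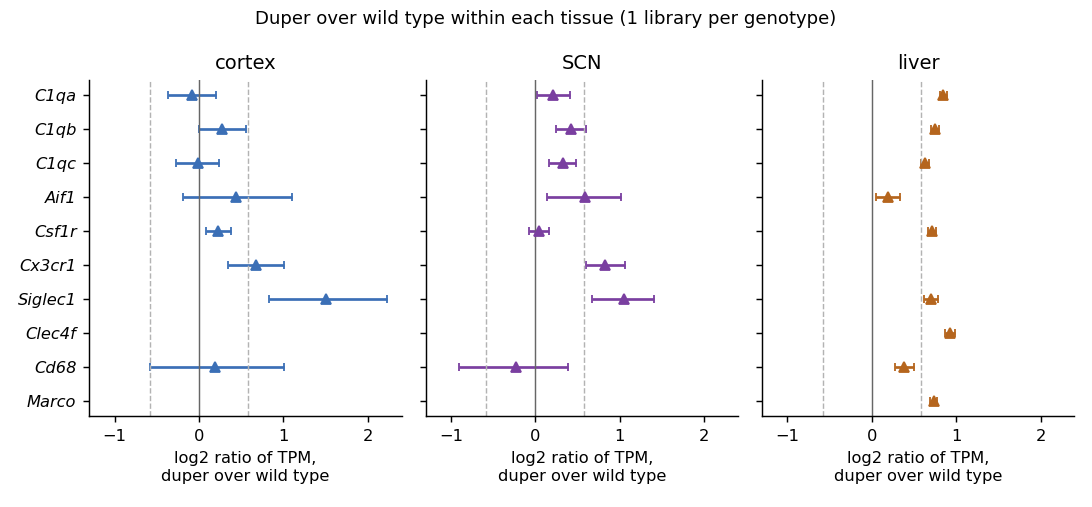
Log2 ratio of TPM, *duper* over wild type (horizontal axis), for each marker whose mean reached 1 TPM in cortex, SCN and liver, with 1 library per genotype. Bars are 95% intervals of counting error, solid lines mark 0 and dashed lines mark 0.58 in either direction. In liver 7 of 9 markers lie past 0.58, in cortex *Siglec1* and *Cx3cr1* do, and in SCN *Siglec1*, *Cx3cr1* and *Aif1* do.

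Over the 3 tissues, *C1qb*, *Aif1*, *Csf1r* and *Siglec1* were higher in *duper* in each. That is 4 of the 7 markers whose mean reached 1 TPM in every tissue, against 9.52% of all such genes. This count takes any ratio above 0, whatever its size. The counting intervals of *Csf1r* in SCN (-0.08 to 0.16) and of *Aif1* in cortex (-0.19 to 1.10) held 0. That of *C1qb* in cortex began at 0.002. *C1qa* and *C1qc* were higher in SCN and liver, *Cx3cr1* in both brain tissues, and *Cd68* in cortex and liver.

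Whether the difference between genotypes was larger in liver than in brain was tested as an interaction, with 1 residual degree of freedom. *C1qa* (0.97 ± 0.19, adjusted p = 0.0147) and *Csf1r* (0.80 ± 0.17, adjusted p = 0.0257) were called, 2 of 8 markers, where 3.25% of all genes were. *C1qc* (0.66 ± 0.19, adjusted p = 0.0891), *Cd68* (0.64 ± 0.37, adjusted p = 0.424) and *C1qb* (0.59 ± 0.18, adjusted p = 0.109) had positive estimates that were not called. *Cx3cr1* (-0.59 ± 0.38, adjusted p = 0.486), *Siglec1* (-0.28 ± 0.28) and *Aif1* (-0.14 ± 0.37) had negative ones. Both calls were lost with DESeq2 (adjusted p = 0.250 for *C1qa* and 0.353 for *Csf1r*), with library size alone and with limma on log2(TPM + 1), while the estimates stayed between 0.57 and 0.98.

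The wider lists of macrophage genes were less one-sided between genotypes than the 10 markers, and edgeR called no gene of any list. The median log2 fold change across tissues was 0.31 for 13 microglial genes (11 positive, 4 with an unadjusted p under 0.05), 0.13 for 9 Kupffer cell genes (7 positive, 1), 0.23 for 14 genes of most macrophages (13 positive, 5) and -0.07 for 5 genes of border macrophages (1 positive, 1). In liver the medians were 0.48 for microglial genes, 0.28 for Kupffer cell genes and 0.21 for the shared macrophage genes. For border macrophage genes the liver median was -0.18, over only 3 genes that reached 1 TPM, *Mrc1*, *Lyve1* and *Stab1*. The liver endothelium list had a median of -0.28 in the same pair, and expression of these 3 genes by liver endothelium was not separated. Genes of the Kupffer cell list went both ways in liver, with 6 of 10 higher in *duper*. Expression of these genes by other liver cells was not separated. *Cd5l* went from 90.7 to 143 TPM between the wild-type and the *duper* liver and *Slc40a1* from 222 to 249 TPM, whereas *Nr1h3*, the nuclear receptor LXR-alpha, went from 165 to 131 TPM. DESeq2, which called 41 genes in all, called 1 Kupffer cell gene, *LOC121136869*, annotated as similar to the scavenger receptor M130 and picked by the study from these libraries, at 43.1 and 89.4 TPM in liver. *Spic*, a transcription factor of iron-recycling macrophages, named after its values were seen, went from 13.2 to 5.11 TPM. *Mrc1*, the mannose receptor, which liver endothelium also makes, went from 20.5 to 14.1 TPM.

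In SCN 4 of 5 genes of border macrophages were lower in *duper*, with a median of -0.72 over 5 genes and 3 of them past -0.58. *Mrc1* went from 8.03 to 4.89 TPM, *F13a1*, a coagulation factor subunit, from 13.5 to 8.24 TPM, and *Colec12*, a scavenger collectin, from 28.8 to 16.3 TPM. *Lyve1*, a hyaluronan receptor, was at 27.3 and 30.6 TPM. Of all genes 10.2% were past -0.58 in SCN, among them *Ttr*, at 165 and 24.1 TPM, and the myelin gene *Cldn11*, at 509 and 306 TPM. The microglial genes had a median of 0.36 in the same pair of libraries, with 9 of 13 higher and 4 lower in *duper*. *Ctss*, a lysosomal protease, was at 42.0 and 56.5 TPM, *P2ry12* at 23.5 and 30.3 TPM and *Olfml3*, a secreted matrix protein, at 24.0 and 10.2 TPM. In cortex the medians were 0.12 for microglial and 0.05 for border macrophage genes.

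Other lists also differed between the libraries compared. The erythroid list, mainly haemoglobin genes, was lower in *duper* in each tissue, at 1432 against 826 TPM in cortex, 5649 against 2068 TPM in the SCN pair and 3288 against 1794 TPM in liver. Its median log2 fold change was -1.20, with 0 of 7 genes positive, 6 of them at an unadjusted p under 0.05, and DESeq2 called 4, where it called 41 of 26140 genes in all. The interferon-stimulated list was higher, with 26 of 28 genes positive, 16 at an unadjusted p under 0.05 (3.31% of all genes) and a median of 0.58, and DESeq2 called 3. Its liver median was 0.52, its SCN median 0.50 and its cortex median 0.16. The study picked several of its genes from these libraries. The monocyte and neutrophil list went from 228 to 1155 TPM in liver, 1040 TPM of the latter being *Lcn2*, which hepatocytes also make. *S100a9*, a defining neutrophil gene, was at 34.5 and 6.59 TPM in cortex, 6.06 and 1.97 TPM in the SCN pair, and 42.3 and 64.0 TPM in liver. The liver endothelium list went from 376 to 342 TPM and the hepatocyte list from 141330 to 152992 TPM. Neuron, astrocyte, oligodendrocyte and lymphocyte lists had medians of 0.10, 0.12, -0.01 and 0.14 across tissues, the last over 5 genes tested. In liver the lymphocyte list had a median of 0.60 against -0.12 for all genes. There 5 of its 10 genes were past 0.58 and higher in *duper*, and 1 was past it and lower. The monocyte and neutrophil list also had a liver median of 0.60, with 4 of 7 genes past 0.58 and higher, against 6.48% of all genes. The list of ligands, C1q partners and TGF-beta genes had 13 of 15 genes higher in *duper* liver, 4 of them past 0.58. Its median was 0.34 in liver, -0.05 in cortex and 0.01 in SCN. *C3* went from 4034 to 6426 TPM and *C1r* from 464 to 657 TPM in that pair of livers, so a higher *duper* liver value was not particular to the 10 markers. The oligodendrocyte list went in opposite directions in the brain tissues, from 2063 to 2726 TPM in cortex and from 4056 to 3409 TPM in SCN. The part of these lists, and of the unequal sexes, in the genotype differences of the markers was not tested.

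**Figure D5:**
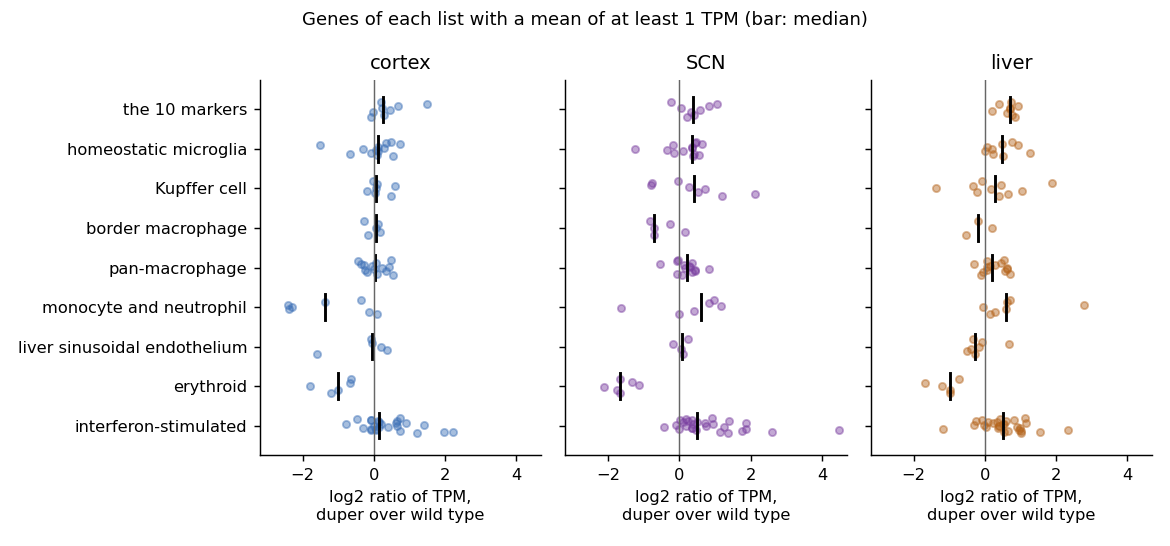
Log2 ratio of TPM, *duper* over wild type (horizontal axis), for each gene whose mean reached 1 TPM, by list (rows) and tissue (panels), with 1 point per gene and a bar at the median. The 10 markers have a median of 0.25 in cortex, 0.37 in SCN and 0.72 in liver, erythroid genes lie below 0 in every tissue, and border macrophage genes have a median of -0.72 in SCN.

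Genes with the most similar pattern over the 6 libraries were sought for *Cx3cr1*, *Clec4f* and *Siglec1*, by the distance between centred log2(TPM + 1) values among 13564 genes whose mean reached 5 TPM. For *Cx3cr1* they were *Cdh7*, a cadherin (distance 0.32), *LOC101835431* and *Khdrbs2*, an RNA-binding protein. *Cdh7* had 7.24 and 8.70 TPM in wild-type and *duper* cortex, 6.55 and 10.9 TPM in the SCN pair and 0 TPM in both livers. For *Clec4f* they were *Pate2*, at 58.2 and 84.9 TPM in liver and 0 TPM in all brain libraries (distance 0.27), *LOC101835615* and *LOC121142750*. For *Siglec1* they were *Tmem140* (distance 0.41), *LOC110340938* and *LOC101840310*. *Tmem140* was at 4.63 and 7.84 TPM in cortex, 6.16 and 9.68 TPM in the SCN pair and 16.7 and 19.4 TPM in liver, so that it shared with *Siglec1* both the step from brain to liver and the higher *duper* value in each tissue. With 6 libraries these distances are a description only.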

How the data were processed

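RNA-seq of 3 tissues and 2 genotypes gave 6 libraries, grouped by the deposited labels. The authors assigned reads to transcripts with Kallisto (version not given in the sources used here), summed them per gene with tximport, and deposited estimated counts, not normalized, and TPM. All 67818 transcripts matched a RefSeq annotation, used only for gene names and neighbours. Estimated counts do not show reads split between similar transcripts. List genes whose symbol was not matched, such as Tyrobp, Timd4 and Cd163, were not analysed under that symbol. The Kupffer cell list did hold *LOC121136869*, annotated as similar to the scavenger receptor M130, and its relation to Cd163 was not examined.

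The markers and lists were chosen with earlier results of these data known. Genes named outside the 10 markers are the 5 most abundant of each list, the ligands of CSF1R and CX3CR1, and the nearest patterns, with *Spic* and *LOC121136869* added after their values were seen. The check of cortex against SCN used *Tbr1*, *Neurod6*, *Neurod2* and *Slc17a7*, and *Six6*, *Lhx1*, *Prokr2* and *Rgs16*, also chosen late. Counts were rounded and tested in R 4.3.3 with the quasi-likelihood test of edgeR 4.0.16 (filterByExpr by genotype, TMM, 2 residual degrees of freedom, common dispersion 0.034). An SE is the absolute log2 fold change over the square root of F. The p-values measure only the spread between these libraries. Intervals used scipy 1.17.1. Scripts were tested on simulated data.

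Alternatives were DESeq2 1.42.0, library size alone, a minimum of 10 counts in each library, dropping the filter (1 count in total required), limma 3.58.1 on log2(TPM + 1), and leaving out each tissue or library. For the genotype, edgeR's likelihood ratio test and thinning to the smallest total were added, and within tissues a pseudocount of 1 or 0.1 TPM and TMM-scaled CPM. The filter by tissue was chosen after seeing the data.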

Additional observations from a re-analysis of the deposited data

Results flagged for a closer look

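A pair of markers had a difference between genotypes that was itself different in liver and in brain by edgeR's quasi-likelihood test of the interaction. For *C1qa* the log2 difference in liver exceeded that in cortex and SCN by 0.97 (SE 0.19, adjusted p = 0.0147), with within-tissue ratios of -0.08 in cortex, 0.21 in SCN and 0.85 in liver. For *Csf1r* it exceeded it by 0.80 (SE 0.17, adjusted p = 0.0257), with ratios of 0.23, 0.04 and 0.72. The adjusted p ran from 0.00404 to 0.786 for *C1qa* and from 0.00714 to 0.786 for *Csf1r* over 6 alternatives, 3 of which called each gene. Such calls were not particular to the markers, as 3.25% of all genes were called. In the main fit 3 of 16 ligands, C1q partners and TGF-beta genes and 2 of 9 monocyte and neutrophil genes were called, all with positive estimates. Of the 14 genes of most macrophages 0 were called. The test has 1 residual degree of freedom, and liver sets hold merged individual libraries whereas brain libraries hold mixed tissue, so that way of pooling and tissue cannot be told apart.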

How the results depend on the processing

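Genotypes were already compared within tissues by the tissue term, and the labels give no replicate numbers for any further block. For *duper* over wild type, the number of markers called went from 0 to 1 (*Siglec1*) with DESeq2, with the likelihood ratio test and with no filter. The number of all genes called went from 1 to 41 with DESeq2, 91 with the likelihood ratio test, 48 with no filter, 15 with the filter by tissue, 6 with 1 draw of thinned counts and 0 with limma on log2(TPM + 1), which gave 697 genes at an unadjusted p under 0.05. Leaving out a tissue gave 2 to 34 genes, with 34 without SCN and 22 without liver. For the interaction, 2 markers became 0 with DESeq2, library size alone and limma, and 594 genes became 193, 350 and 0. For SCN over cortex, 2045 genes became 267 (without wild-type cortex) to 3565 (without *duper* liver), with 464 without *duper* cortex, 620 without wild-type SCN, 1286 without *duper* SCN and 3561 without wild-type liver, and no marker was called in any of these. *Csf1r* in liver over brain reversed to -0.14 with limma on log2(TPM + 1). Library size alone moved the median of all genes in liver over brain to -1.21 and the calls from 6083 higher and 6226 lower to 2633 and 11001. The cause of these shifts was not tested. Of the values for single markers, 381 kept their side of the call threshold, 370 of them with the same sign, 4 gained and 8 lost a call. Under TMM-scaled CPM 9 liver ratios moved beyond their counting interval, all upward, a rescaling that shifts all genes of the pair nearly alike. The sign turned in 11 of the 381, none of them called, 10 for SCN over cortex and 1 for *Cd68* in *duper* over wild type without liver. Depth limits *Siglec1*, *Cd68* and *Aif1* most, with 23 to 32 counts each in wild-type cortex.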
